A study of Mus musculus with 20 samples.

Results

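The 40 genes described here encode collagens and other matrix proteins, the enzymes that fold and crosslink collagen, contractile proteins, and surface receptors, all typical of fibroblasts and other mesenchymal cells. They were taken by gene symbol from a list drawn up with earlier results of these data known, and each matched 1 row of the total RNA table and 1 row of the ribosome-bound RNA table, so 40 of 52636 genes are covered. The values were measured in cultures of macrophages grown from mouse fetal liver, in 20 libraries from 5 animals. Of these, 3 mice (KO-84, KO-94 and KO-179) carried Csf1r-iCre with HuR fl/fl and are labelled as conditional knockouts, and the 2 animals WT-280 and WT-281 carried Csf1r-iCre with HuR +/+ and are the controls. Every animal also expressed EGFP-L10a, a ribosomal protein with a fluorescent tag; the labels do not name the promoter that drives it. The Csf1r promoter is known for its activity in mononuclear phagocytes. Cells of fetal liver, of day E14.5 in the design text and E14.4 in the growth protocol, were cultured for 6 days with medium conditioned by L cells. Plates were then kept in hypoxia (1% O2) or normoxia (20% O2) for 18 h. Each lysate was split into the RNA pulled down with the tagged ribosomes (TRAP, short for translating ribosome affinity purification) and total RNA (input), both sequenced after poly(A) selection. This gave 3 knockout-labelled and 2 control libraries for each of hypoxia TRAP, normoxia TRAP, hypoxia input and normoxia input.

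Fibroblasts build the extracellular matrix. Type I and type III collagens form its fibres, type IV collagen and nidogens form basement membranes, and proteoglycans such as decorin and biglycan bind to the fibres. Collagen chains are folded in the endoplasmic reticulum with the help of the chaperone Serpinh1 and the prolyl isomerase Fkbp10, trimmed outside the cell, and crosslinked by lysyl oxidases. Activated fibroblasts, called myofibroblasts, and smooth muscle cells add contractile proteins such as smooth muscle actin (Acta2) and transgelin (Tagln). In the liver these genes are known from hepatic stellate cells, portal fibroblasts and vascular cells. Macrophages express few of them, with fibronectin (Fn1) a known exception.

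Values are TPM, which are scaled for gene length and sum to 1000000 in each library. They are shares of a library, set beside each other here between genes and between the 2 tables. A share also depends on the rest of its library. Over genes at 1 TPM or more in either fraction, the median difference in log2(TPM + 1), TRAP minus input, ran from -0.53 to 0.17 by lysate. Depth cannot be read from TPM, so the counting error of these values is unknown. The libraries held 10243 to 12402 genes at 1 TPM or more. The targeted gene Elavl1, which encodes HuR, was not lower in the knockout-labelled libraries: in input it ranged from 1.69 to 154 TPM in the 6 knockout-labelled libraries and from 2.07 to 47.3 TPM in the 4 control libraries. The knockout is therefore named as a label throughout. A list of 20 macrophage genes summed to between 24518 and 35918 TPM in TRAP and between 22311 and 33037 TPM in input. The endothelial markers Tek, Tie1, Emcn, Cldn5 and Robo4, the erythroid markers Alas2, Slc4a1 and Hbb-bt, the hepatocyte factor Hnf4a, the stellate markers Lrat and Ngfr and the mesothelial markers Msln and Podxl were listed at 0 in every library. Other genes of these lists were present. In input, the endothelial receptor Kdr ranged from 1.47 to 5.10 TPM, the fetal hepatocyte gene Afp had a median of 7.60 TPM, and the mesenchymal factor Hand2 had a median of 1.67 TPM. Transferrin (Trf) had an input median of 53.5 TPM and reached 417 TPM, and the adhesion protein Alcam had one of 49.4 TPM. The hepatocyte list summed to 21.2 to 196 TPM in TRAP and 29.2 to 429 TPM in input, highest in KO-94. The TRAP to input ratio of the sums had a median of 0.446 for the hepatocyte, 0.449 for the endothelial and 0.701 for the mesothelial and stellate list, and the part of these cells in the results was not tested. The input library of KO-84 in normoxia listed 11 of the 40 genes at 0, while the other input libraries listed between 0 and 6. The calls of TRAP against input are also given without it, while most other results in input include it.

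Together the 40 genes made up a small share of the RNA, and smooth muscle and matricellular transcripts dominated. Their summed level in input was 770, 300.0 and 934 TPM for hypoxia cultures of KO-84, KO-94 and KO-179, against 1179 and 1239 TPM in WT-280 and WT-281. In normoxia it was 745, 377 and 783 TPM in the knockout-labelled animals, against 1727 and 1258 TPM in the controls. The knockout-labelled sums lay below both controls at each oxygen level, and KO-94 was lowest at both. The 4 most abundant genes, Acta2, Tagln, Sparc and Igfbp7, held 58.0% of the summed input mean and the 10 most abundant held 81.7%. In all 10 input libraries 26 of the 40 genes were above 0 and 22 reached 1 TPM; in all 10 TRAP libraries 11 were above 0 and 6 reached 1 TPM.

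**Figure D1:**
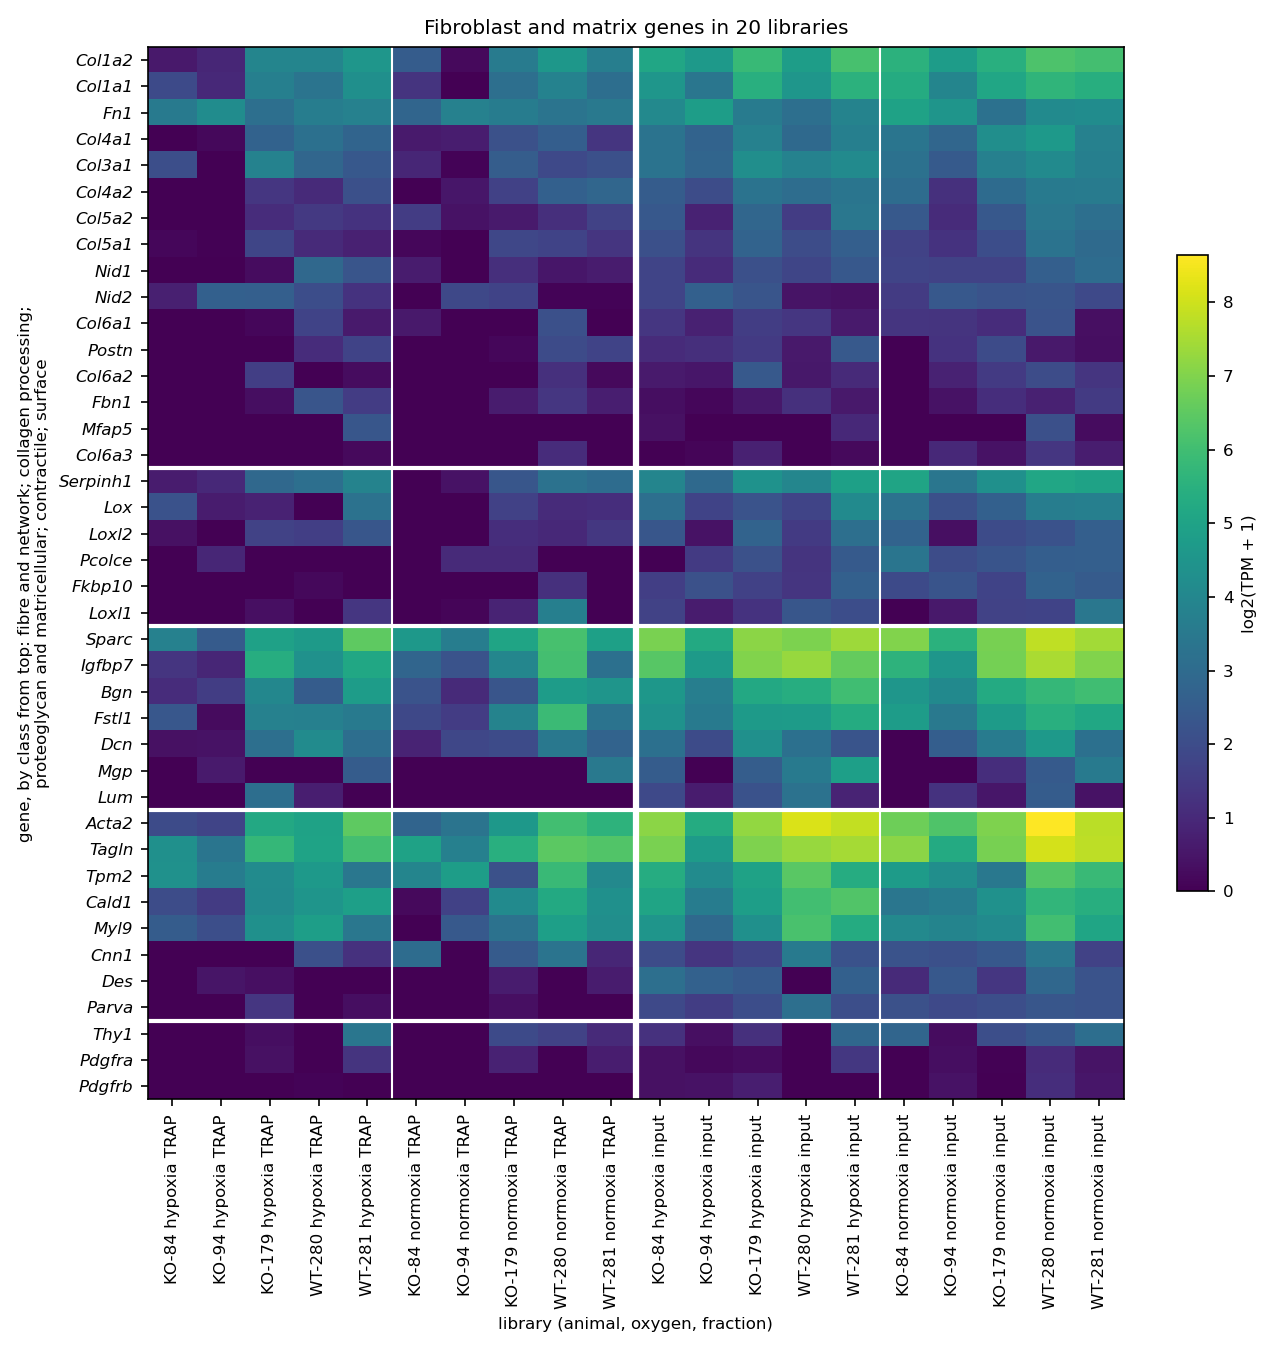
Heat map of log2(TPM + 1) for the 40 genes (rows, by class and by input mean within a class) in the 10 TRAP libraries (left) and the 10 input libraries (right). Acta2, Tagln, Sparc and Igfbp7 are brightest in input, and most rows are darker in TRAP, where KO-84 and KO-94 are darkest.

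The label was checked on 8 defining fibroblast markers, Col1a1, Col1a2, Col3a1, Dcn, Lum, Pdgfra, Postn and Thy1. Their summed level was between 2.25 and 65.9 TPM in TRAP and between 45.1 and 174 TPM in input, most of it from the 2 chains of type I collagen. Pdgfra, the receptor most often used to mark fibroblasts, was between 0 and 1.63 TPM in input. Pdgfrb, a receptor of mural and stellate cells, was between 0 and 1.19 TPM in input and was above 0 in 1 of 10 TRAP libraries. Thy1, a surface glycoprotein of many fibroblasts, reached 9.49 TPM in TRAP (WT-281 in hypoxia) and 7.74 TPM in input (WT-281 in normoxia). Collagen genes and smooth muscle genes were thus both present while receptor transcripts were scarce, and no single mesenchymal cell type is assigned from these values.

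The contractile genes were the most abundant class. Acta2, smooth muscle actin, lies on chromosome 19 (34240336 to 34255585, GRCm38.p6), and in hypoxia it measured 2.91, 2.39, 36.3, 30.7 and 89.98 TPM in TRAP of KO-84, KO-94, KO-179, WT-280 and WT-281, against 141, 38.9, 149, 286 and 230 TPM in input of the same animals. In normoxia the TRAP values of Acta2 were 5.95, 9.02, 23.2, 64.0 and 47.3 TPM and the input values 106, 74.9, 124, 399 and 216 TPM. Every animal had less Acta2 in TRAP at both oxygen levels, and the lowest TRAP values were those of KO-84 and KO-94. Tagln, transgelin, an actin-binding protein of smooth muscle, measured 19.3, 9.21, 52.9, 31.5 and 65.9 TPM in hypoxia TRAP, against 120, 26.1, 123, 157 and 176 TPM in hypoxia input, in the same order of animals. In normoxia it measured 30.3, 12.6, 43.2, 86.5 and 78.1 TPM in TRAP, against 139, 37.6, 116, 272 and 217 TPM in input. Transgelin was again lower in TRAP in each of the 10 lysates. Tpm2 and Cald1, the actin-filament proteins tropomyosin 2 and caldesmon, had medians of 16.3 and 16.6 TPM over the 10 TRAP libraries, against 34.9 and 29.8 TPM over the 10 input libraries. The regulatory myosin light chain Myl9 had a median of 9.19 TPM in TRAP against 20.4 TPM in input. Calponin (Cnn1), a marker of contractile smooth muscle, was scarcer, with medians of 1.13 TPM in TRAP and 3.43 TPM in input. Des and Parva, which encode the intermediate filament desmin and the focal adhesion protein alpha-parvin, were above 0 in 4 and 3 of 10 TRAP libraries.

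Smooth muscle genes are known to be driven by serum response factor, which binds a 10-base site called the CArG box. Promoter windows (250 bases before to 50 bases after a gene's start, RefSeq, GRCm38.p6) were at hand for 24 of the 40 genes. Only the 250 bases before the start were searched, and the box reads alike on both strands. An exact box was found before Myl9 alone among the 24, and in 1.47% of all 32851 promoters. With 1 letter allowed to differ, a box was found before Acta2, Myl9, Cald1, Col1a2 and Col6a3, and in 18.6% of all promoters. The boxes of the 2 contractile genes with more than 1 match are shown with 10 bases on each side, 5′ to 3′ on the strand of the gene, with the box in capitals:
Acta2, 84 bases before the start (chr19:34255438-34255467, minus strand): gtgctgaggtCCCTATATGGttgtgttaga
Acta2, 34 bases before the start (chr19:34255388-34255417, minus strand): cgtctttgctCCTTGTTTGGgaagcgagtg
Myl9, 161 bases before the start (chr2:156775293-156775322, plus strand): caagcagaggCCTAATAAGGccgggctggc
Myl9, 99 bases before the start (chr2:156775355-156775384, plus strand): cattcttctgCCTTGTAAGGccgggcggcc
The first box of Myl9 is the exact one, and the other 3 differ from the CArG box in 1 letter. ACGTG, the core of the hypoxia response element, was searched on both strands in the same windows and was found before Col1a2, Col5a1, Igfbp7 and Serpinh1, and in 16.6% of all promoters. A match describes letters and not a site in use.

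Among the collagens, the 2 chains of type I collagen led. In hypoxia, Col1a1 measured 2.84, 1.02, 12.4, 9.002 and 18.5 TPM in TRAP of KO-84, KO-94, KO-179, WT-280 and WT-281, against 22.3, 9.45, 43.3, 22.4 and 46.5 TPM in input. In normoxia, it was 1.48, 0, 7.96, 13.2 and 7.80 TPM in TRAP, against 38.6, 14.2, 33.4, 49.4 and 42.1 TPM in input. Each animal had less Col1a1 in TRAP, and KO-94 had the least in both fractions at both oxygen levels. Col1a2, the other chain, measured 0.523, 0.902, 14.3, 14.3 and 22.3 TPM in hypoxia TRAP, against 33.9, 24.5, 55.6, 26.8 and 68.2 TPM in hypoxia input. Its normoxia values were 4.75, 0.172, 11.03, 23.0 and 12.1 TPM in TRAP, against 45.8, 26.3, 42.7, 73.4 and 65.6 TPM in input. Both chains were lower in TRAP than in input in all 10 lysates. The fibrillar collagen Col3a1 ranged from 0 to 13.1 TPM in TRAP, with a median of 3.25 TPM, and from 4.45 to 18.4 TPM in input, with a median of 12.5 TPM. Col4a1 and Col4a2, the 2 main chains of the type IV collagen of basement membranes, had medians of 2.44 and 1.31 TPM in TRAP, against 10.7 and 7.37 TPM in input. These 2 genes lie head to head on chromosome 8, with starts 21 bases apart in the promoter table. The 3 type VI collagen genes were low, with input medians between 0.254 TPM for Col6a3 and 1.496 TPM for Col6a1, and the elastic fibre genes Fbn1 and Mfap5 had input medians of 0.479 and 0 TPM.

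Fibronectin was closer to its input level than the type I collagens were. Fn1 measured 10.9, 17.6, 7.95, 11.6 and 13.0 TPM in hypoxia TRAP of KO-84, KO-94, KO-179, WT-280 and WT-281, against 15.7, 27.0, 11.1, 7.97 and 13.4 TPM in hypoxia input. In normoxia it was 6.04, 12.9, 11.4, 8.91 and 10.2 TPM in TRAP, against 30.6, 21.7, 8.33, 16.5 and 17.6 TPM in input. Fn1 was lower in TRAP in 8 of 10 lysates, with a ratio of mean TRAP to mean input of 0.65, and its TRAP and input ranges overlapped at both oxygen levels. This was not particular to Fn1: the ratio was higher for the scarcer genes Fbn1 (1.34), Mfap5 (0.832), Pdgfra (0.762) and Nid2 (0.73). KO-94, lowest for 28 of the 40 genes in mean input, was highest for Fn1. Nid2, a basement membrane nidogen, and Des were the only other genes with the highest input mean in KO-94.

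Matricellular proteins and small proteoglycans were the second abundant class. Sparc, a collagen-binding matricellular protein, measured 12.8, 4.54, 30.1, 25.0 and 88.7 TPM in hypoxia TRAP, against 118, 36.7, 140.4, 121 and 166 TPM in hypoxia input, for KO-84, KO-94, KO-179, WT-280 and WT-281. In normoxia it measured 23.3, 11.8, 31.9, 69.7 and 28.9 TPM in TRAP, against 128, 45.2, 116, 226 and 172 TPM in input. The TRAP values of Sparc were below the input values in each of the 10 lysates. Igfbp7, a secreted binding protein of insulin-like growth factors, had a median of 11.4 TPM in TRAP against 104 TPM in input. The proteoglycan biglycan (Bgn) had medians of 4.28 TPM in TRAP and 37.0 TPM in input, and the secreted glycoprotein Fstl1 had medians of 9.80 TPM in TRAP and 25.7 TPM in input. Decorin (Dcn) had closer medians, 4.34 TPM in TRAP and 8.17 TPM in input, and lumican (Lum) and matrix Gla protein (Mgp), an inhibitor of calcification, were at 0 in 8 and 7 of 10 TRAP libraries.

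Collagen processing genes were scarce in TRAP. Serpinh1, the collagen chaperone also called Hsp47, measured 0.576, 0.988, 6.66, 7.87 and 13.6 TPM in hypoxia TRAP of KO-84, KO-94, KO-179, WT-280 and WT-281, against 14.38, 6.78, 20.2, 14.8 and 29.5 TPM in hypoxia input. In normoxia it was 0, 0.347, 3.98, 8.54 and 7.32 TPM in TRAP, against 31.8, 9.55, 19.1, 33.9 and 30.7 TPM in input. Serpinh1 was lower in TRAP in every lysate. Fkbp10 was above 0 in only 2 TRAP libraries, both of WT-280 (0.144 TPM in hypoxia and 1.28 TPM in normoxia), while its input values ran from 1.52 to 5.57 TPM. Pcolce, the enhancer of the enzyme that trims procollagen, was above 0 in 3 of 10 TRAP libraries. The lysyl oxidases Lox, Loxl1 and Loxl2 had input medians of 6.67, 2.25 and 3.72 TPM, and TRAP medians of 0.932, 0.04 and 1.105 TPM.

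TRAP was set against input to ask which transcripts of the lysate were recovered on tagged ribosomes. The summed level of the 40 genes in TRAP was between 0.120 and 0.404 times that in input of the same lysate, with a median of 0.256 over 10 lysates. The ratio was smallest in KO-84, at 0.120 in hypoxia and 0.149 in normoxia. It was 0.214 and 0.252 in KO-94, 0.359 and 0.292 in KO-179, 0.254 and 0.353 in WT-280, and 0.404 and 0.258 in WT-281. The macrophage list gave ratios between 1.00 and 1.29, above the matrix ratio in every lysate. These are ratios of sums, in which the most abundant genes weigh most. The median log2 difference over the macrophage genes was negative in normoxia, as given below. By the ratio of mean TRAP to mean input, 39 of the 40 genes were below 1 and the median was 0.300. The exception was Fbn1, fibrillin 1, at 1.34, from values no higher than 3.87 TPM; the lowest ratio was that of Pdgfrb, at 0.0212. In the 10 lysates, 16 of the 40 genes were lower in TRAP every time and 31 were lower in at least 8. By lysate, 25 to 38 of the 40 were lower in TRAP. Of all genes at 1 TPM or more in either fraction, 44.1% to 73.1% were. The 40 were not filtered on expression here and include genes near 0. No share of all genes was taken for the counts across lysates or for the ratios of means. In bulk RNA, fewer cells of a type and less RNA per cell cannot be told apart, and whether these transcripts came from cells without tagged ribosomes was not tested.

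In the reported fit across all genes, TRAP differed from input for few genes, all of them lower in TRAP. Other settings also called genes higher in TRAP, among them the animal as a block in the fit. Without the filter on expression, 10.3% of the genes called in normoxia and 42.9% of those called in hypoxia were higher. In normoxia 34 of 14842 genes passed (0.229%), all lower in TRAP, and 3 of the 39 members tested were among them (limma, adjusted p under 0.05, differences in log2(TPM + 1)). They were Parva (chromosome 7, 112427706 to 112591688), Fkbp10 (chromosome 11, 100415694 to 100424840) and Pcolce (chromosome 5, 137605105 to 137611522). Parva measured 0, 0, 0.268, 0 and 0 TPM in normoxia TRAP of KO-84, KO-94, KO-179, WT-280 and WT-281, against 3.45, 2.78, 3.21, 4.02 and 3.60 TPM in input. The groups did not overlap, and Parva fell by 2.10 ± 0.36 on the log2 scale (SE; limma adjusted p = 0.0151). Fkbp10 was at 0 in 4 of these 5 TRAP libraries, against 2.37 to 5.57 TPM in input, and fell by 1.99 ± 0.35 (adjusted p = 0.0151). Pcolce measured 0, 1.06, 1.06, 0 and 0 TPM in TRAP, against 9.34, 3.00, 3.69, 4.94 and 5.12 TPM in input, and fell by 2.22 ± 0.45 (adjusted p = 0.0439). Serpinh1 averaged 4.04 ± 3.90 TPM in TRAP and 25.0 ± 10.4 TPM in input (SD, n = 5 each), with a difference of -2.62 ± 0.56 that did not pass (adjusted p = 0.0606). Of the 39, 38 had negative differences, with a median of -1.32 against -0.28 for all genes, and 22 had an unadjusted p under 0.05, against 9.88% of all genes. The filter, at least 1 TPM in at least 2 of the 20 libraries, left out Pdgfrb. Parva and Fkbp10 reached 1 TPM in 1 TRAP library each and in all 10 input libraries, so they passed the filter only through input, where they are high. The same holds for Des, which reached 1 TPM in 0 TRAP and 9 input libraries. It also holds for Lum, Pdgfra and Col6a3, with 1 TRAP library each and 5, 2 and 2 input libraries. The counts and medians over the 39 include these genes and therefore describe the members that passed.

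In hypoxia the same comparison gave 13 of 14842 genes (0.0876%), all lower in TRAP, with 2 of the 39 members, Parva and Fkbp10. Parva averaged 0.364 ± 0.681 TPM in TRAP and 3.80 ± 2.35 TPM in input (SD, n = 5 each) and fell by 1.92 ± 0.36 (limma adjusted p = 0.0493). Fkbp10 averaged 0.0288 ± 0.0644 TPM in TRAP and 2.89 ± 1.51 TPM in input and fell by 1.85 ± 0.35 (adjusted p = 0.0493). Both genes are lowly expressed, their TRAP values were mostly 0, and both had passed the filter only through input. Acta2 had a larger difference, -2.92 ± 0.60, with wider spread (32.4 ± 35.7 TPM in TRAP and 169 ± 94.3 TPM in input; adjusted p = 0.0808). Desmin averaged 0.139 ± 0.196 TPM in TRAP and 4.59 ± 2.86 TPM in input (-1.90 ± 0.45, adjusted p = 0.211), and it too had passed the filter only through input. The median of the 39 was -1.38 against -0.10 for all genes, 36 were negative, and 24 had an unadjusted p under 0.05, against 5.20% of all genes.

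The number of calls in the reported fit fell when any single animal was left out. The median over members then lay between -1.56 and -1.16 in normoxia and between -1.57 and -1.27 in hypoxia. Without KO-84, KO-94, WT-280 or WT-281 in turn, 0 members passed at either oxygen level, and without KO-179, 1 passed at each. Without the normoxia input library of KO-84, 0 passed at either. The 2 fractions of a lysate share an animal, and with the animal as a block in the fit 18 of 39 members passed in normoxia (380 of all 14842 genes were lower, 2.56%, and 94 were higher) and 9 of 39 in hypoxia (58 genes were lower, 0.391%, and 3 were higher). All of these members were lower in TRAP. In normoxia these were Col1a1, Col1a2, Col3a1, Col4a1, Col5a1, Nid1 and Nid2 of the fibre and network class, Serpinh1, Fkbp10, Pcolce and Lox of the processing class, Sparc, Igfbp7 and Bgn of the matricellular and proteoglycan class, and Acta2, Tagln, Parva and Des of the contractile class. In hypoxia they were Col1a2, Col4a2, Fkbp10, Sparc, Igfbp7, Bgn, Acta2, Tagln and Parva. Among the genes named for the blocked fit, Fkbp10, Parva and Des had passed the filter only through input. With that block Serpinh1 passed in normoxia (adjusted p = 0.00494; between 0.00494 and 0.447 over 19 alternatives) and Acta2 in hypoxia (0.00660; between 0.0066 and 0.686). With the block and 1 animal left out, 5 to 12 members passed in normoxia and 0 to 7 in hypoxia, the 0 without KO-84 or KO-94. Without the normoxia input library of KO-84 the blocked fit gave 13 and 8 members.

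The direction was shared by most animals. With quantile normalization, which moved the median of all genes to 0.02 in hypoxia and 0.01 in normoxia, 34 and 36 of the 39 members were negative. In normoxia 25 of the 39 members were lower in TRAP in all 5 animals (14.7% of all genes) and 0 were higher in all 5 (2.96%). In hypoxia 21 were lower in all 5 (8.18%) and 0 higher in all 5 (2.32%). By class in normoxia, 15 of 16 fibre and network genes, 6 of 6 processing genes, 7 of 7 matricellular and proteoglycan genes, 8 of 8 contractile genes and 2 of 2 tested surface genes had negative differences, with class medians between -2.10 for processing and -0.69 for surface genes. Postn, periostin, was the positive one (0.20 ± 0.40). In hypoxia the fibre and network class had 13 of 16 negative and a median of -0.66, while the contractile class had 8 of 8 negative and a median of -1.75. The 3 positive genes were Nid2, Fbn1 and Mfap5. Per animal, the median over the 39 members lay between -2.15 (KO-84) and -1.13 (KO-179) in normoxia and between -1.92 (KO-84) and -0.97 (WT-280) in hypoxia.

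**Figure D2:**
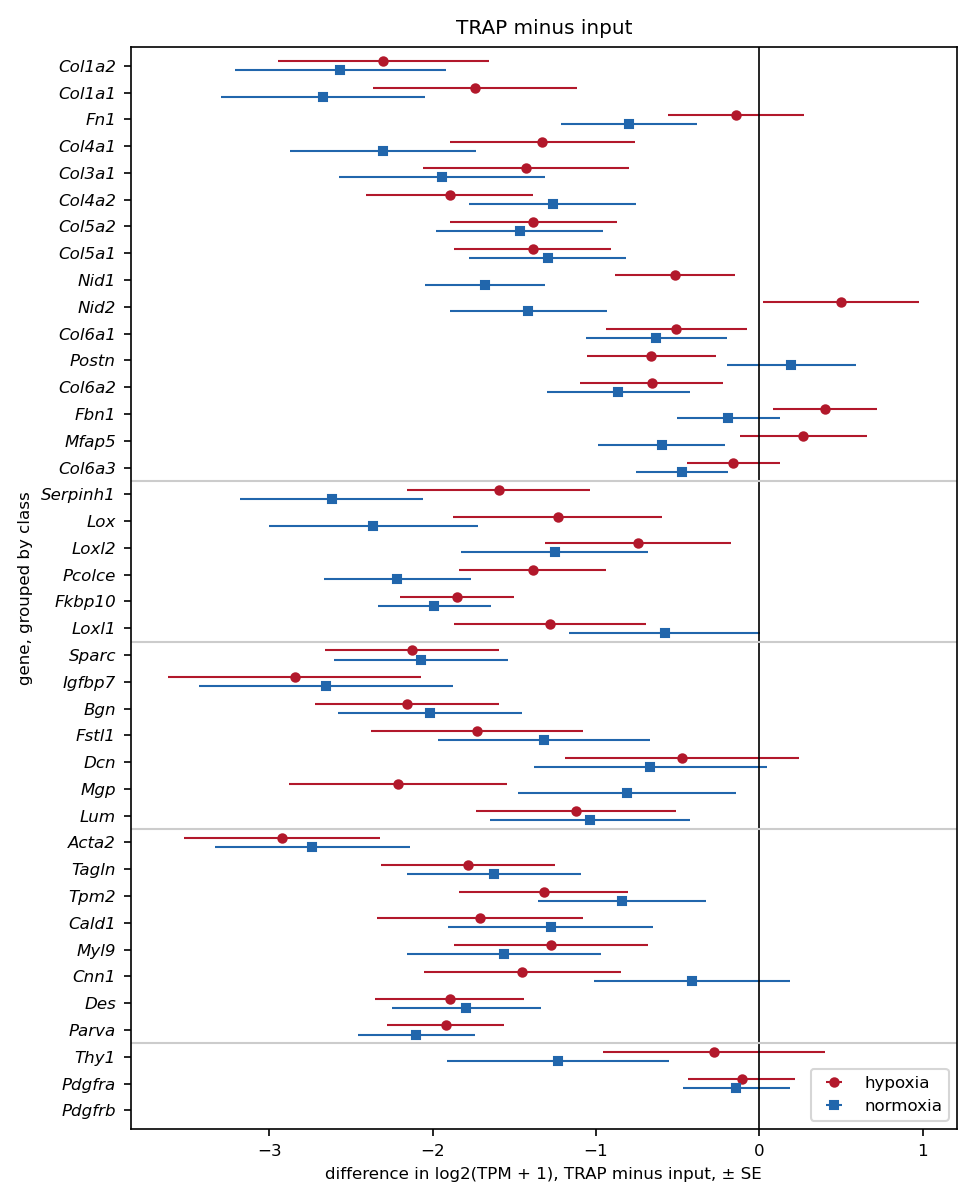
Difference in log2(TPM + 1), TRAP minus input, for the 39 tested genes with limma standard errors, in hypoxia (circles) and normoxia (squares), with genes grouped by class. Nearly all points lie left of 0; Acta2 and Igfbp7 lie farthest left in hypoxia, and Acta2 and Col1a1 in normoxia; Pdgfrb was not tested.

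Other genes of the same pathways were also examined; the difference between these lists and the 40 genes was not tested. Of all 14842 genes, 0.229% passed in normoxia and 0.0876% in hypoxia. The list of 25 other collagen biosynthesis enzymes summed to between 0.649 and 1.06 times its input level in TRAP. Of these, 2 of the 20 tested passed in normoxia and 0 in hypoxia. The 2 were P4ha2, a collagen prolyl hydroxylase, and P3h4, a partner of the prolyl 3-hydroxylases. P3h4 was near 0 in TRAP, at 0.123 ± 0.275 TPM against 3.68 ± 1.86 TPM in input (SD, n = 5 each). Of 38 other matrix genes, which summed to between 0.455 and 1.14 times input, 21 could be tested, and 0 passed in normoxia and 1, Mfap2, a microfibril protein, in hypoxia. Mfap2 was likewise near 0 in TRAP, at 0.187 ± 0.419 TPM against 4.64 ± 3.82 TPM in input (SD, n = 5 each). Other contractile genes, most of them expressed in many cell types, summed to between 0.999 and 1.52 times input, and 0 of 19 tested passed at either oxygen level. Most of that sum was the myosin light chain Myl6, with a median of 2174 TPM in TRAP and 1457 TPM in input, while 18 of the 19 had negative differences in normoxia. Genes of the TGF-beta pathway, the main inducer of matrix genes in fibroblasts, summed to between 0.499 and 1.13 times input, with 0 of 18 passing at either. Medians of the log2 differences in normoxia were -0.89, -0.78, -1.11 and -0.64 for these 4 lists, and -0.38 for the 20 macrophage genes, of which 0 passed. The median over all genes was -0.28. With the animal as a block, 7 of the 20 other collagen enzymes and 3 of 20 macrophage genes (Adgre1, Csf1r and Laptm5) were lower in normoxia, and 1 macrophage gene was higher. Of the 19 other contractile genes, 3 (Actn4, Cnn2 and Myh9) were then lower in normoxia and 1 (Actn1) in hypoxia, where P4hb and Mfap2 were also lower. Over all genes, the blocked fit called 2.56% lower in normoxia and 0.391% lower in hypoxia.

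Whether the TRAP to input difference itself moved with oxygen was tested as an interaction. By limma, 0 of 14842 genes passed (0%), with 353 at an unadjusted p under 0.05. The 2 nidogens, linkers of the basement membrane, came closest among the members. Nid2 measured 0.701, 5.27, 5.13, 3.09 and 1.40 TPM in hypoxia TRAP of KO-84, KO-94, KO-179, WT-280 and WT-281, against 2.42, 5.22, 3.89, 0.384 and 0.296 TPM in hypoxia input. In normoxia its values were 0, 2.69, 2.38, 0.063 and 0.061 TPM in TRAP, against 1.84, 4.15, 3.63, 3.85 and 2.79 TPM in input. TRAP was below input in every animal in normoxia and above it in 4 of 5 in hypoxia. The change in the difference was 1.92 ± 0.68 for Nid2 and 1.16 ± 0.52 for Nid1, and neither passed (adjusted p = 1 for both). Mfap5 (0.87 ± 0.55) and Postn (-0.86 ± 0.56) followed, at the same adjusted p, and the median over the members was 0.14 against 0.16 for all genes.

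Hypoxia was compared with normoxia in each fraction. In TRAP, limma called 0 of 13522 genes (0%), with 339 at an unadjusted p under 0.05, and in input 0 of 13901 (0%), with 321. The members moved little as a group. Their median difference was -0.11 in TRAP over 32 members tested (0.01 for all genes) and -0.18 in input over 38 (-0.15 for all genes), and 0 members had an unadjusted p under 0.05 in either fraction. In TRAP, Col6a3, Lum, Pdgfra, Pdgfrb, Des, Fkbp10, Parva and Mfap5 were too low to be tested, and in input Pdgfrb and Mfap5.

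Single genes showed differences within the spread between animals. In input, Mgp averaged 9.66 ± 11.003 TPM in hypoxia and 3.22 ± 4.46 TPM in normoxia (1.26 ± 0.60, limma adjusted p = 0.999), and Pcolce averaged 2.23 ± 1.75 TPM in hypoxia and 5.22 ± 2.47 TPM in normoxia (-1.02 ± 0.53, 0.999; SD, n = 5 each). Nid2 (-0.74 ± 0.41) and Cald1 (0.65 ± 0.39) came next. Col4a1 and Pcolce were lower in hypoxia in all 5 animals, 2 of 38 (7.02% of all genes were), and 0 of 38 were higher in all 5 (2.41%). In TRAP, Nid2 averaged 3.12 ± 2.09 TPM in hypoxia and 1.04 ± 1.37 TPM in normoxia, higher in all 5 animals, but did not pass (1.18 ± 0.57, adjusted p = 1). It was the 1 of 32 members higher in all 5 (3.45%), and 0 were lower in all 5 (2.8%). Nid1 (0.75 ± 0.41), Cnn1 (-1.16 ± 0.66) and Col4a2 (-0.72 ± 0.51) were the next by p, each at an adjusted p of 1. With the animal as a block, 0 members passed in either fraction.

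**Figure D3:**
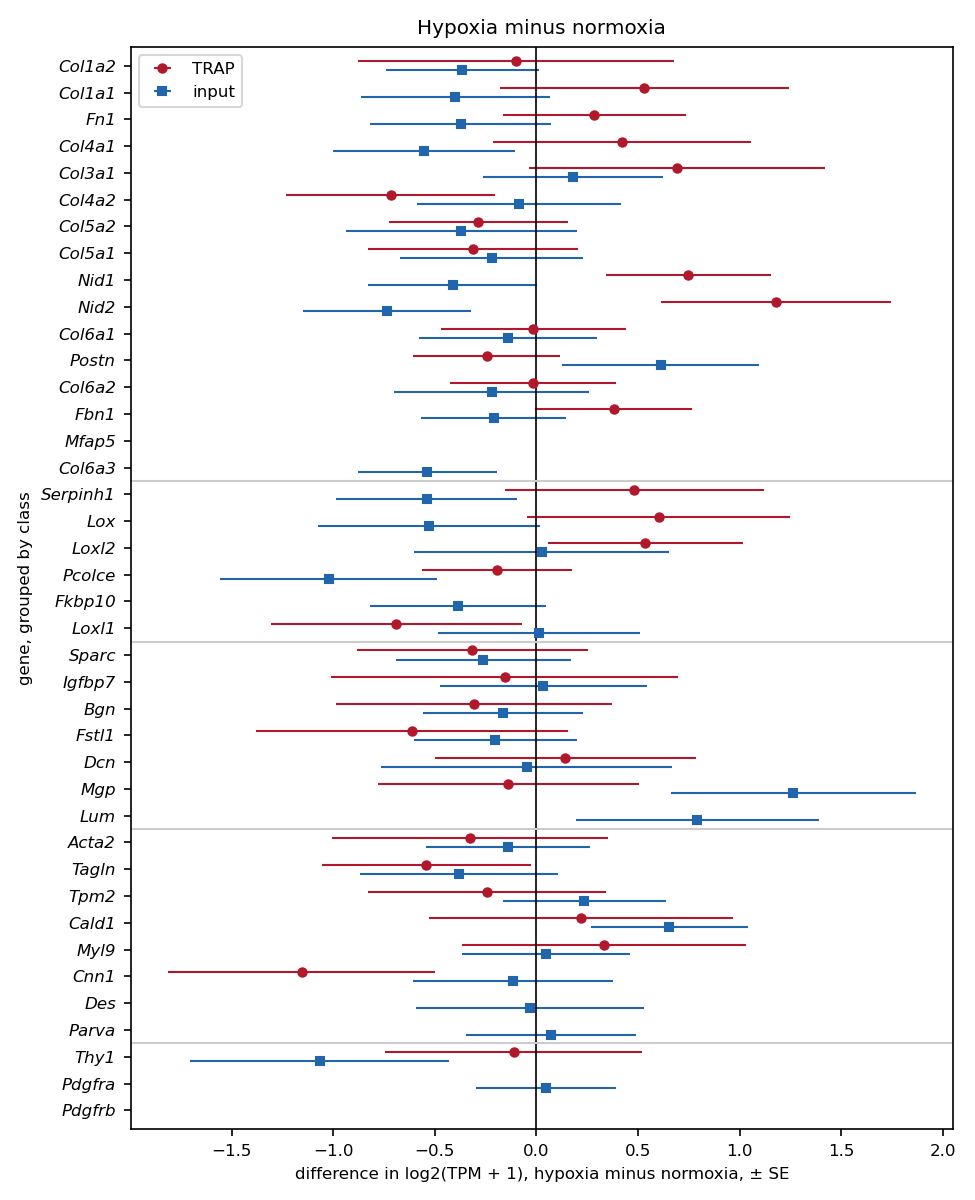
Difference in log2(TPM + 1), hypoxia minus normoxia, with limma standard errors, in TRAP (circles, 32 genes) and input (squares, 38 genes). Points scatter on both sides of 0, with Nid2 at 1.18 in TRAP and -0.74 in input.

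The animals differed in the direction of this comparison. The median over members of hypoxia minus normoxia in input was 0.00 in KO-84, -0.20 in KO-94, 0.27 in KO-179, -0.82 in WT-280 and -0.02 in WT-281. For WT-280 the median over all genes was -0.42, the lowest of the 5 animals. The difference between genotypes in the hypoxia change was called for 0 of 13901 genes in input and 0 of 13522 in TRAP (0% each), with 261 and 284 at an unadjusted p under 0.05. The member with the smallest p was Nid2 in input (1.89 ± 0.83, adjusted p = 1) and Nid1 in TRAP (-2.53 ± 0.81, adjusted p = 1). The median over members in input was 0.41 (0.25 for all genes), but -0.10 without WT-280.

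Knockout-labelled and control cultures were then compared, which asks whether the matrix transcripts moved with the HuR label. By limma, 0 genes passed in each of the 4 comparisons (0% of 13522 in hypoxia TRAP, 0% of 13522 in normoxia TRAP, 0% of 13901 in hypoxia input and 0% of 13901 in normoxia input). At an unadjusted p under 0.05 there were 585, 704, 901 and 304 genes in that order. The values of most members were nonetheless lower in the knockout-labelled libraries, and in both input comparisons the contractile and the matricellular and proteoglycan classes had the lowest class medians. In normoxia input, the median over 38 members was -0.94 (0.11 for all genes) and 36 were negative, 10 of them with an unadjusted p under 0.05 (2.19% of all genes). In hypoxia input the median was -0.54 (0.36 for all genes), 31 of 38 were negative, and 4 were lower and 1 higher at an unadjusted p under 0.05 (6.48% of all genes). The class median in normoxia input was -1.51 for contractile, -1.23 for matricellular and proteoglycan, -0.76 for fibre and network and -0.74 for processing genes.

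In normoxia input, the 4 members with the smallest p were Tpm2, Cald1, Mgp and Acta2. Tpm2 measured 26.1, 18.4 and 9.91 TPM in the knockout-labelled libraries, against 80.2 and 57.2 TPM in the controls (-1.94 ± 0.57, limma adjusted p = 1). Cald1 measured 9.46, 11.4 and 19.6 TPM in the knockout-labelled libraries, against 50.8 and 41.9 TPM in the controls (-1.76 ± 0.55, adjusted p = 1). The groups of both genes were apart. Mgp was at 0, 0 and 1.18 TPM in the knockout-labelled libraries, against 4.41 and 10.5 TPM in the controls (-2.61 ± 0.85, adjusted p = 1). Acta2 measured 106, 74.9 and 124 TPM in the knockout-labelled libraries, against 399 and 216 TPM in the controls (-1.55 ± 0.57, adjusted p = 1). All knockout-labelled values lay below all control values for 21 of 38 members (5.75% of all genes) and above them for 0 (9.42%). Pdgfra, among the 21, reached 1 TPM in input only in control libraries, so it passed the filter only through them.

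In hypoxia input, the members with the smallest p were Myl9, Nid2, Cald1 and Mgp. Myl9 measured 21.5, 6.72 and 19.3 TPM in the knockout-labelled libraries, against 70.9 and 39.2 TPM in the controls (-1.82 ± 0.58, limma adjusted p = 0.736). Nid2 went the other way, at 2.42, 5.22 and 3.89 TPM in the knockout-labelled libraries, against 0.384 and 0.296 TPM in the controls (1.81 ± 0.58, adjusted p = 0.736). Cald1 averaged 23.7 ± 10.9 TPM in knockout-labelled (SD, n = 3) and 70.7 ± 9.26 TPM in control libraries (SD, n = 2; -1.65 ± 0.55), and Mgp 3.16 ± 2.73 and 19.4 ± 12.3 TPM (-2.53 ± 0.85), both at limma adjusted p = 0.736. All knockout-labelled values lay below all control values for 12 of 38 members (4.48% of all genes). They lay above them for 1, Nid2 (18.4% of all genes). The 12 held 7 of the 8 contractile genes, namely Acta2, Tagln, Myl9, Cnn1, Tpm2, Cald1 and Parva, together with Bgn, Fstl1, Mgp, Fbn1 and Loxl1.

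**Figure D4:**
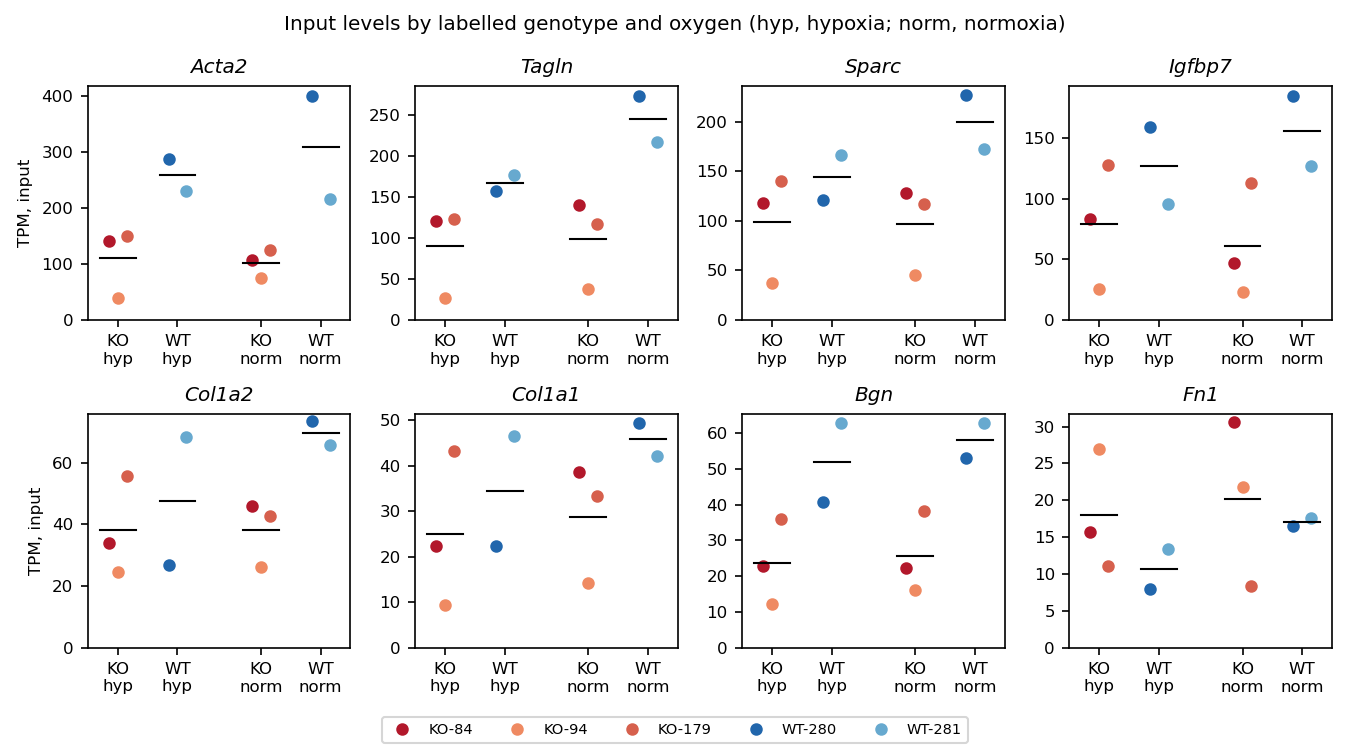
Input TPM of 8 genes by labelled genotype and oxygen, with a point for each animal and a line at the group mean (3 knockout-labelled animals, 2 controls). Acta2 and Tagln are lower in all knockout-labelled animals at both oxygen levels, the type I collagen genes overlap in hypoxia, and Fn1 shows no such order.

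With quantile normalization 34 of 38 members were negative in hypoxia input and 37 of 38 in normoxia input. The type I collagens illustrate the overlap. In normoxia input the knockout-labelled values of Col1a2 (26.3 to 45.8 TPM) lay below the control values (65.6 and 73.4 TPM), but in hypoxia input the control WT-280, at 26.8 TPM, lay among the knockout-labelled values of 24.5 to 55.6 TPM. Col1a1 behaved likewise, with WT-280 at 22.4 TPM in hypoxia between knockout-labelled values of 9.45 and 43.3 TPM. Leaving out that WT-280 library changed the median over members in hypoxia input to -0.83, and leaving out WT-281 changed it to -0.18. The same median was -0.25 without KO-94 and -0.88 without KO-179.

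In TRAP the knockout-labelled values were again mostly lower, and KO-84 and KO-94 had the 2 lowest summed levels at each oxygen level. The median over 32 members was -1.34 in hypoxia (0.06 for all genes) and -1.21 in normoxia (0.05 for all genes), and 28 were negative at each. In hypoxia, Nid1 measured 0, 0 and 0.218 TPM in the knockout-labelled libraries, against 6.63 and 3.86 TPM in the controls (-2.51 ± 0.58, limma adjusted p = 1). Fbn1 (-1.81 ± 0.55), Acta2 (-2.76 ± 0.96) and Postn (-1.42 ± 0.51) followed, each at an adjusted p of 1. Fbn1 and Postn reached 1 TPM in TRAP only in control libraries, so they passed the filter only through the group where they are high. Nid1 also needed its control libraries to pass. Postn, periostin, a matricellular protein of activated fibroblasts, was listed at 0 in the 3 knockout-labelled hypoxia TRAP libraries, against 1.15 and 2.33 TPM in the controls. In normoxia it was at 0, 0 and 0.124 TPM, against 2.95 and 2.32 TPM (-1.80 ± 0.51, adjusted p = 0.769). Bgn measured 3.62, 1.03 and 3.85 TPM in normoxia TRAP of the knockout-labelled animals, against 26.6 and 21.9 TPM in the controls (-2.82 ± 0.96, adjusted p = 0.918). Col4a2 (-2.01 ± 0.73) and Myl9 (-2.68 ± 0.99) came next, at the same adjusted p of 0.918. All knockout-labelled values lay below all control values for 9 of 32 members in hypoxia (6.94% of all genes) and for 12 of 32 in normoxia (9.67%), and above them for 0 of 32 in both (9.36% and 9.85%). Like Fbn1 and Postn, Col6a1, Loxl1 and Mgp reached 1 TPM in TRAP only in control libraries, and Pcolce only in knockout-labelled ones. The counts and medians over the 32 include all these genes and therefore describe the members that passed the filter.

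Values of the macrophage list were mostly higher in knockout-labelled libraries, with median log2 differences of 0.66 in hypoxia input and 0.55 in normoxia input over 20 genes, 15 of 20 positive at each, and 0 passing. TPM are shares of a whole, and the part of the macrophage values in the result for the matrix genes was not tested. The TRAP to input difference was also compared between genotypes, and 0 of 14842 genes passed in hypoxia or in normoxia (0% each), with 441 and 376 at an unadjusted p under 0.05. The median over members of this difference of differences was -0.53 in hypoxia (-0.25 for all genes) and 0.02 in normoxia (-0.03 for all genes). The member with the smallest p was Nid1 in hypoxia (-2.05 ± 0.74) and Postn in normoxia (-2.44 ± 0.79), both at a limma adjusted p of 1.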

How the data were processed

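Poly(A) RNA was sequenced from 10 TRAP and 10 input libraries. TPM values were deposited by the authors in 2 tables, each library summing to 1000000; HISAT, DESeq2 and GRCm38 appear in the submitters' processing notes, without versions or roles. Read depth is unknown. The tables also hold 20 columns of per-animal ratios, which were not used, and 27 symbols turned into dates held no member.

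The members and lists were chosen with earlier results of these data known. Ccn1 and Ccn2 were matched by older symbols and Ahsp was not matched. Positions and promoters come from RefSeq (GRCm38.p6).

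A gene entered a fit if 2 or more of its libraries reached 1 TPM, and was tested on log2(TPM + 1) with limma 3.58.1 (R 4.3.3, trend), two-sided, with Benjamini-Hochberg adjustment over all genes of each of 13 comparisons and a threshold of 0.05. One fit over both tables gave TRAP against input, and fits within each table gave the other contrasts, all with a mean per group. The code was tested on simulated data. Named genes were the members past the threshold, then the smallest p-values, up to 4 per comparison, or the first for genotype differences of a change, with Acta2, Tagln, Col1a1, Col1a2, Col3a1, Fn1, Sparc and Serpinh1 by their values; other members were named after their values were seen.

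Numbers in the labels mark the same animal across oxygen and fraction. Deviations of same-numbered libraries correlated at 0.28 to 0.76 (hypoxia with normoxia, input), 0.23 to 0.58 (TRAP) and 0.15 to 0.64 (TRAP with input), so an animal block was an alternative. Others were pseudocounts of 0.1 and 5, no filter, quantile normalization, no trend, each animal left out, and 2 doubted input libraries left out; leave-one-out with the block, and the block without the KO-84 normoxia input library, were added after seeing the data. With a control left out, the spread of the lone control is taken from the other groups. The labels name no batch.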

Additional observations from a re-analysis of the deposited data

How the results depend on the processing

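Genes called in TRAP against input in normoxia numbered 34 as reported. They numbered 9 with quantile normalization, 474 with the replicate block, 7 without the KO-84 normoxia input library and 133 with the block and without that library. Leaving out an animal gave 0 to 24, and 55 to 444 with the block. The 3 members became 5 with a pseudocount of 5 or no trend, 0 with quantile normalization or without the KO-84 library, 18 with the block and 13 with the block and without that library, with 0 to 1 and, with the block, 5 to 12 on leaving out an animal. In hypoxia the 13 genes became 1 with a pseudocount of 0.1, 21 with no filter, 5 with quantile normalization, 61 with the block, 8 without the WT-280 hypoxia input library, 6 without the KO-84 library and 61 with the block and without the KO-84 library. Leaving out an animal gave 0 to 8, and 1 to 100 with the block. The 2 members became 0 with either other pseudocount, with quantile normalization or without the KO-84 library, and 9 with the block, or 8 with the block and without that library. Leaving out an animal gave 0 to 1 members, and 0 to 7 with the block. The medians over members were -2.16 in normoxia and -2.13 in hypoxia with a pseudocount of 0.1, and -0.69 and -0.63 with 5.

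No comparison other than TRAP against input called a gene as reported. With no filter, the hypoxia change of the TRAP to input difference called 14 genes and its genotype difference 18 in hypoxia and 10 in normoxia. That genotype difference in hypoxia also called 4 with a pseudocount of 5, 2 with quantile normalization or without the KO-84 library, 1 with the block and 0 to 1 on leaving out an animal; its median was -1.29 with a pseudocount of 0.1. Hypoxia against normoxia in input called 0 to 1 on leaving out an animal, and the genotype difference of the TRAP hypoxia change called 1 with a pseudocount of 0.1. Knockout-labelled against control called, with no filter, 10 genes in hypoxia TRAP, 2 in normoxia TRAP and 1 in each input comparison. It called 1 in each TRAP comparison with a pseudocount of 5 and 1 in hypoxia input without the KO-84 library. Leaving out an animal gave 0 to 2 in hypoxia TRAP, 0 to 1 in normoxia TRAP and 0 to 2 in normoxia input. The medians were -2.32 in hypoxia TRAP, -2.24 in normoxia TRAP and -1.33 in normoxia input with a pseudocount of 0.1, and -0.64 in normoxia input with 5. In hypoxia input the median was -0.92 with quantile normalization, -0.83 without the WT-280 library and -0.88 to -0.18 on leaving out an animal. The genotype difference of the hypoxia change in input had a median of 0.14 with quantile normalization and -0.10 to 0.66 on leaving out an animal. The cause of these changes was not tested.

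Of the named members, 451 values stayed on their side of the threshold, 57 lost it, 15 gained it and 0 changed sign. All 57 losses came from the reported calls, which were Parva and Fkbp10 at both oxygen levels and Pcolce in normoxia. Each of these calls except Parva in normoxia was lost in most of its 19 alternatives. Most of the 451 were values that passed neither as reported nor in the alternative. Outside TRAP against input, the block changed no call of a member. No paired analysis was possible for knockout-labelled against control because these groups share no animal. Differences near 0 TPM depend on the pseudocount, and the depth behind them is unknown.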
